A study of Mus musculus with 18 samples.

Results

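The testis serine proteases of the Prss family are described here through 10 genes, Prss21, Prss37, Prss42, Prss43, Prss44, Prss45, Prss46, Prss50, Prss54 and Prss55, taken by symbol from a table of 46603 mouse genes. All 10 were in the table and all 10 passed the filter on low counts. They were picked by name with their levels in these libraries already known, so their levels and changes between groups are given as a description. Calls of single genes come from the fit of all genes, and the set as a whole was not tested. RNA-seq read counts were available for 18 libraries from adult testis, 3 for each of 6 sorted germ cell populations labelled, along spermatogenesis, Undiff.Spg and Diff.Spg, then PreL and LZ, then PD and last RS. All 6 groups came from mice of 1 labelled strain, C57BL/6, that carried the Stracre-GAG-tdTomato transgenes, and cells were collected on an Aria 3 sorter. The labels do not spell out the group names, do not give the gates, and do not say whether replicates were separate animals, so the spread between libraries may be partly technical. No non-transgenic mice are among the groups, so every population shares the transgenes.

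Serine proteases of the trypsin fold cut proteins with a catalytic triad of histidine, aspartate and serine. Mammalian testis expresses many genes of this class, and their products are known from meiotic germ cells, the acrosome and the sperm surface. Some family members have lost a triad residue and are regarded as pseudoproteases.

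The libraries held 11777947 to 16607462 counts. Summed markers of undifferentiated spermatogonia were highest in Undiff.Spg (2046 to 2204 CPM, read counts scaled to library size), those of early meiosis in LZ (2194 to 2682 CPM), those of pachytene spermatocytes in PD (7835 to 8753 CPM) and those of round spermatids in RS (2111 to 2708 CPM). The 4 markers of differentiating spermatogonia summed to 1354 to 1469 CPM in Diff.Spg and 1662 to 1867 CPM in PD. Only Kit among them was highest in Diff.Spg, at 589.8 CPM against 17.3 CPM in Undiff.Spg. Dmrtb1 was highest in PD, at 1737 CPM. Stra8 was highest in LZ, at 1054 CPM against 327 CPM in Diff.Spg and 190 CPM in PreL. None of the marker lists was for PreL alone. Sohlh1 was highest in Undiff.Spg, at 130 CPM against 100 CPM in Diff.Spg. The 8 Sertoli cell markers summed to at most 29.8 CPM in any library. PreL replicate 2 and LZ replicate 2 stood apart: 706 genes that are high in PD or RS and nearly silent in both spermatogonial groups were at a median of 2.28% of their late level in PreL replicate 2 and 2.10% in LZ replicate 2, against 0.156% to 0.383% in the other PreL and LZ libraries. Where leaving out 1 of them moved a printed change of a single gene by over 1.5 times, the value without it is given beside the change.

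The coding sequences show which of the proteins keep the catalytic serine, and the 33 bases around that codon are printed for the 9 genes where the surrounding cysteine and glycine pattern was found, with the codon in capitals (GENCODE M21 transcripts on GRCm38, coding strand).
Prss21: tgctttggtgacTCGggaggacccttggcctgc
Prss42: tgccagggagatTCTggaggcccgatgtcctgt
Prss43: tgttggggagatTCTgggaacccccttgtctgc
Prss44: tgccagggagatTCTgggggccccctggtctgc
Prss46: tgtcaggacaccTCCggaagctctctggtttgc
Prss55: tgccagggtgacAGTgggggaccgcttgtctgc
Prss50: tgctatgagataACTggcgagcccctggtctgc
Prss45: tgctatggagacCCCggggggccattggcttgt
Prss54: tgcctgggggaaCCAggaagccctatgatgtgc
The codon encodes serine in 6 genes (Prss21, Prss42, Prss43, Prss44, Prss46 and Prss55). The same 6 also hold the patterns of the catalytic histidine and aspartate, as do Prss37, Prss45 and Prss50. The codon encodes threonine in Prss50, also known as TSP50, a cancer/testis antigen. It encodes proline in Prss45 and Prss54. Prss54 also had no match to the histidine pattern. The aspartate pattern was sought only after a histidine match, so it was not examined in Prss54. Prss37 had no match to the pattern around the serine.

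Despite the shared fold, the coding sequences are distinct. Over the 45 pairs of genes, nucleotide identity was 50.5% to 64.7% at aligned coding positions without gaps. The longest identical run, sought in the whole transcripts, was 24 bases, in a pair of the chromosome 9 cluster. The closest pair was Prss42 and Prss44.

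Of the 10 genes, 6 lie side by side on chromosome 9, all on the plus strand, in the order Prss42, Prss44, Prss43, Prss45, Prss46 and Prss50 (GRCm38, from 110798166 to 110864629). The gaps between neighbours were 10239, 2166, 2748, 3192 and 1444 bp, with no other protein-coding gene between them. The nearest protein-coding genes outside the row, Myl3 and Tmie, averaged at most 1.21 and 2.05 CPM in any group. Prss21 is on chromosome 17, Prss37 on chromosome 6, Prss54 on chromosome 8 and Prss55 on chromosome 14. Prss55 overlaps Prss51 on the other strand without sharing exonic bases, and Prss51 averaged 3.33 CPM in RS.

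Within the row, the last gene peaked before the others. Prss50 reads were highest in LZ, those of Prss42, Prss43, Prss44 and Prss45 in PD, and those of Prss46 in RS. The neighbours Prss46 and Prss50, 1444 bp apart, had their highest levels in RS and in LZ.

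**Figure D1:**
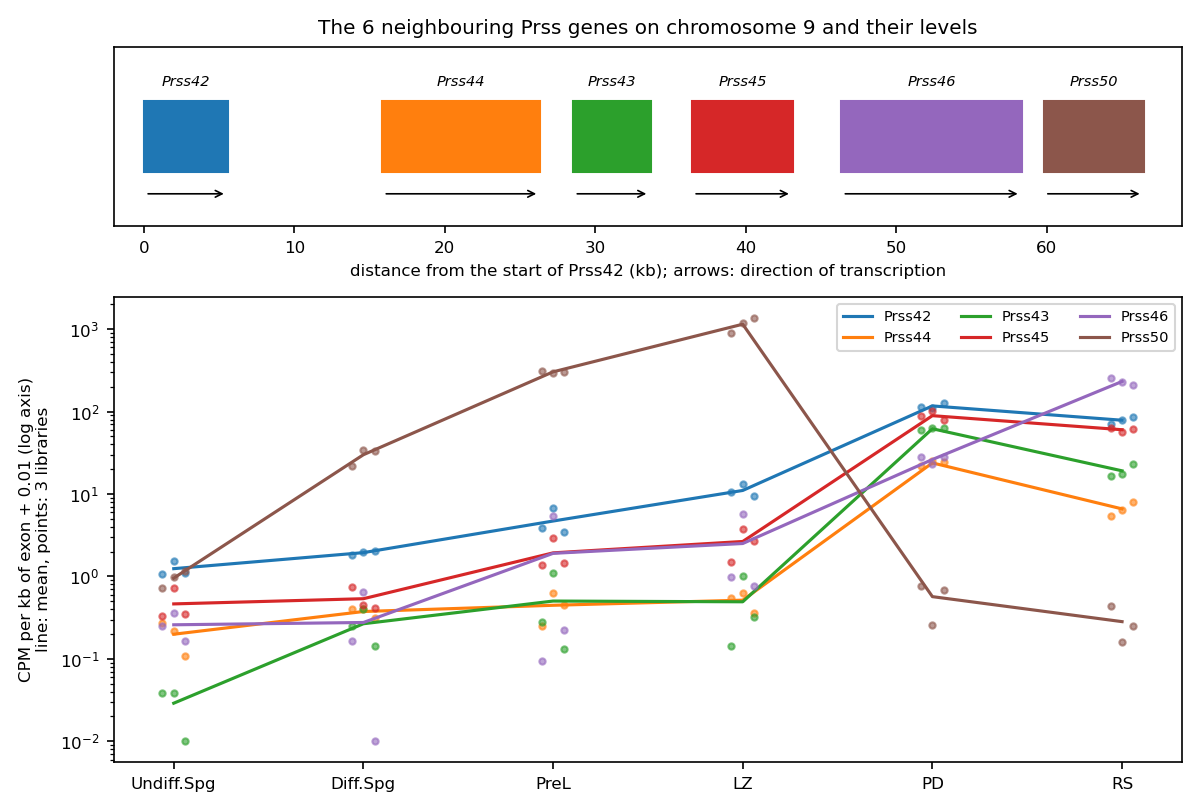
The upper panel maps the 6 chromosome 9 genes by distance from the start of Prss42 in kb, and the lower panel gives their level in CPM per kb of exon (log axis, 0.01 added) over the 6 groups, with the line at the mean and points for the 3 libraries. Prss50 was highest in LZ, at 1147 CPM per kb, while the other 5 genes were highest in PD or RS.

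Prss50 was the early gene of the set. Its level was 1.04, 1.41 and 1.67 CPM in the 3 Undiff.Spg libraries, 31.8, 50.3 and 48.7 CPM in Diff.Spg, 456, 433 and 435 CPM in PreL, and 1297, 1734 and 1981 CPM in LZ. In PD it was 1.10, 0.364 and 0.977 CPM, and in RS 0.625, 0.220 and 0.345 CPM. From Diff.Spg to LZ each group lay wholly above the one before, the PD libraries overlapped those of Undiff.Spg, and the RS libraries lay below them. On the log2 scale, the change was 4.98 ± 0.29 (SE) in Diff.Spg against Undiff.Spg, 3.34 ± 0.25 in PreL against Diff.Spg and 1.92 ± 0.23 in LZ against PreL. In PD against LZ it was −10.99 ± 0.37, a level about 2040-fold lower in PD. The size of this fold rests on few PD reads, 12, 4 and 10 in the 3 libraries. Per kb of exon, Prss50 ranked 10 among 18453 genes in LZ. Its reads made up 98.1% ± 0.8 (SD, n = 3) of all reads of the 10 genes in LZ, and 95.7% ± 3.4 in PreL. PreL replicate 2 and LZ replicate 2 were not the highest libraries of their groups for Prss50. In bulk libraries, fewer cells that express a gene and less RNA per cell cannot be told apart.

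The genes whose profile over the 18 libraries was most like that of Prss50 were Syt7 (Pearson r of log2 CPM 0.993), Prdm9 (0.988) and Arf2 (0.986), each highest in LZ. Prdm9 encodes the histone methyltransferase that marks meiotic recombination hotspots. Against the other 9 genes, r of Prss50 was between −0.63 and −0.40. These correlations describe points that share libraries and depth.

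Prss42, Prss43 and Prss44, listed in RefSeq also as Tessp2, Tessp3 and Tessp4, were highest in PD. Prss42 and Prss43 have been linked to meiotic progression and germ cell survival in mouse. Prss42 was at 179.9, 175 and 201 CPM in PD, against 16.6, 20.8 and 15.1 CPM in LZ, a log2 change of 3.41 ± 0.22. Its RS libraries, at 112, 124 and 138 CPM, were all below PD (−0.58 ± 0.20). Apart from Prss50, Prss42 was the 1 gene of the 10 whose 4 earlier groups did not overlap, with means of 1.95, 3.06, 7.42 and 17.5 CPM in Undiff.Spg, Diff.Spg, PreL and LZ. In LZ it was at 8.12% to 11.2% of its PD level, above the late genes' median in each library.

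Prss43 was at 139, 148 and 145 CPM in PD, against 0.307, 2.32 and 0.734 CPM in LZ, a log2 change of 6.97 ± 0.54. LZ replicate 2 held most of the LZ reads, and without it the log2 change was 8.07. In RS it was at 38.4, 41.2 and 53.7 CPM, below all PD libraries (−1.70 ± 0.39). Prss44 was at 77.5, 88.5 and 86.3 CPM in PD, against 1.92, 2.18 and 1.25 CPM in LZ (5.55 ± 0.29). It too was lower in all RS libraries, at 19.0, 22.7 and 28.0 CPM (−1.85 ± 0.23). These changes in RS were larger in size than those of Prss42 and Prss45, a difference that was not tested.

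Prss45 was at 109.5, 124 and 96.9 CPM in PD, against 1.84, 4.65 and 3.30 CPM in LZ, a log2 change of 5.06 ± 0.31. Its RS libraries, at 77.4, 69.4 and 76.1 CPM, were all below PD (−0.57 ± 0.25). This last step did not pass the threshold in the fit of all genes, and it did under several alternatives, among them the 2 groups fitted alone and total library size. Over the 18 libraries, Prss42 and Prss45 correlated at r = 0.98, and so did Prss43 and Prss44.

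**Figure D2:**
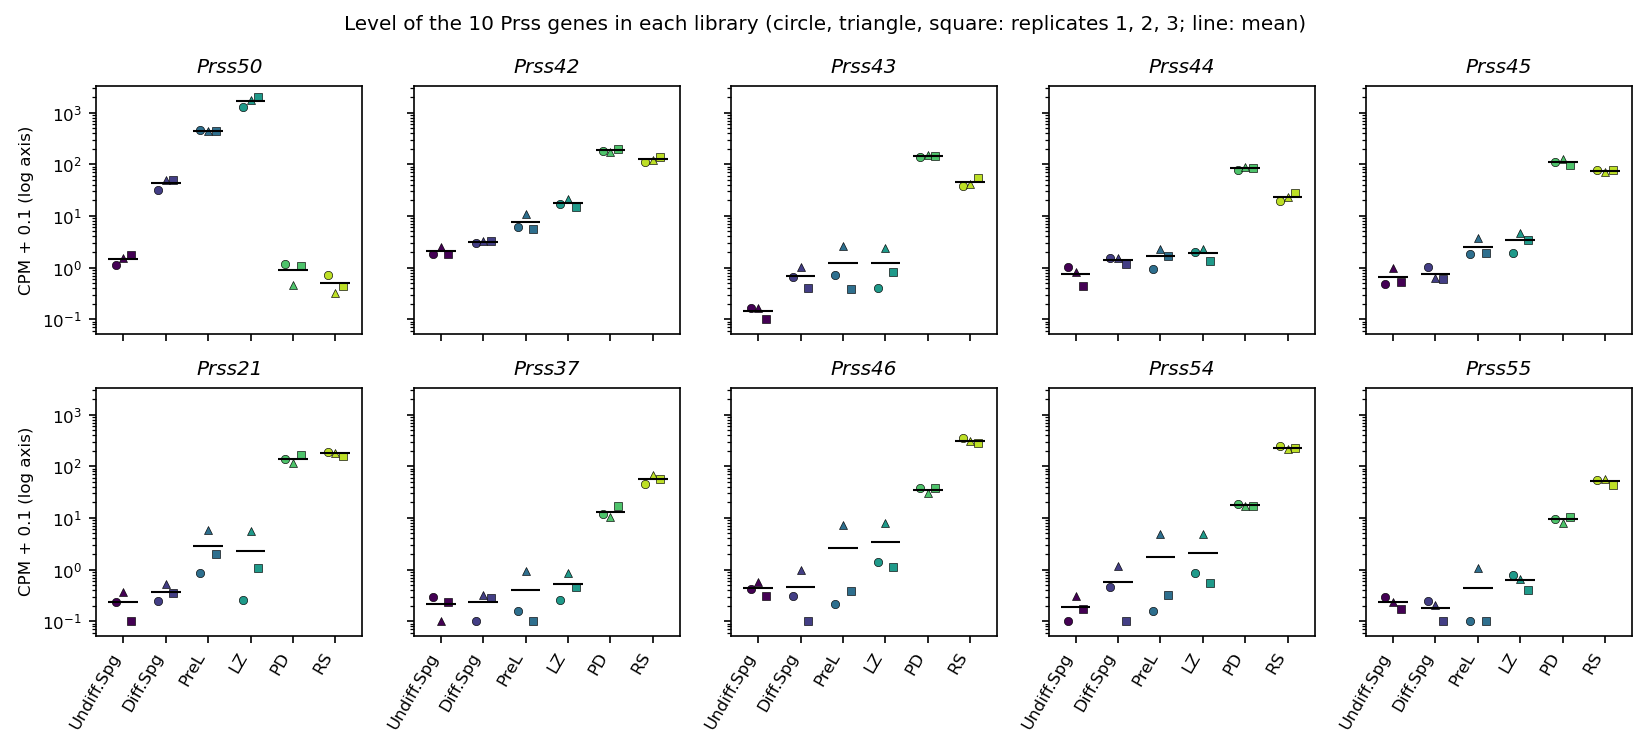
Level of each gene in each of the 18 libraries in CPM (log axis, 0.1 added), with symbols for replicates 1, 2 and 3 and a line at the group mean. Prss50 was highest in LZ, Prss42 to Prss45 in PD and the other 5 in RS, and the triangles of PreL and LZ replicate 2 lie high for Prss21, Prss46 and Prss54.

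Prss21, or testisin, a GPI-anchored protease of the sperm surface, was high in both late groups. It was at 192, 181 and 157 CPM in RS, against 135, 117 and 167 CPM in PD. These ranges overlap, and the log2 change was 0.34 ± 0.54. In PD against LZ, where LZ held 0.153, 5.42 and 0.954 CPM, the log2 change was 5.97 ± 0.71, and 7.93 without LZ replicate 2. That library was the high one there, as was PreL replicate 2, at 5.77 CPM beside 0.739 and 1.93 CPM. Its profile was most like that of Adam18, Slc9c1 and Pbp2, at r of 0.998, 0.997 and 0.996.

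The remaining 4 genes were highest in RS, and none of their RS and PD libraries overlapped. Prss46 was at 344, 306 and 286 CPM in RS, against 37.8, 30.7 and 37.3 CPM in PD, a log2 change of 3.14 ± 0.77. Prss54, known for a role in acrosome biogenesis in mouse, was at 247, 211 and 224 CPM in RS, against 18.5, 16.7 and 17.1 CPM in PD (3.70 ± 0.74). Its last exon ends 178 bp from Ccdc113, a gene of the other strand that averaged 609.9 CPM in RS and 446 CPM in PD. Prss46 and Prss54 had the highest correlation of any pair, at r = 0.99. Both were high in PreL replicate 2 and LZ replicate 2 beside the other libraries of those groups, and r without these libraries is not given.

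Prss55 and Prss37 are needed for male fertility in mouse, where sperm lacking either protein fail to mature the surface protein ADAM3. Prss55 was at 54.5, 57.3 and 43.4 CPM in RS, against 9.61, 7.92 and 10.4 CPM in PD, a log2 change of 2.47 ± 0.39. Prss37 was at 44.5, 67.3 and 55.2 CPM in RS, against 11.7, 10.3 and 16.8 CPM in PD (2.11 ± 0.38). As a share of the mean RS level, the 3 PD libraries held 18.6%, 15.3% and 20.2% for Prss55, and 21.0%, 18.5% and 30.2% for Prss37. For Prss46 the shares were 12.1%, 9.83% and 11.96%, and for Prss54 8.13%, 7.36% and 7.52%.

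In the 4 earlier groups the means of these genes were at most 0.432 CPM for Prss37, 3.36 CPM for Prss46, 2.02 CPM for Prss54 and 0.516 CPM for Prss55, with libraries that overlapped between groups. In PD against LZ the log2 change was 4.85 ± 0.56 for Prss37, or 5.57 without LZ replicate 2, and 4.16 ± 0.55 for Prss55. It was 3.37 ± 0.84 for Prss46 and 3.08 ± 0.82 for Prss54. The LZ mean of both was set mostly by LZ replicate 2, at 7.75 CPM beside 1.30 and 1.03 CPM for Prss46 and at 4.86 CPM beside 0.767 and 0.441 CPM for Prss54. Without that library the log2 change was 4.91 for Prss46 and 4.84 for Prss54, and without LZ replicate 3 it was 2.76 and 2.42.

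Per kb of exon, the highest group means were 1147 CPM per kb for Prss50 in LZ, 232 for Prss46 in RS, 117 for Prss42 in PD and 114 for Prss54 in RS. Below these came Prss45 at 89.1 in PD, Prss21 at 79.5 in RS, Prss43 at 61.9 in PD and Prss37 at 49.6 in RS. Prss55, at 36.9 in RS, and Prss44, at 23.8 in PD, were lowest. Prss42 and Prss54 differed by less than the SD of either, 8.85 and 9.18 CPM per kb.

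By the same measure of likeness, Prss42 was closest to Mllt11, Kdm4d and Efcab5 (r from 0.993 to 0.995), and Prss43 to Chdh, Mesp1 and Ssh2 (0.985 to 0.989). Prss44 was closest to Tkfc, Tmem115 and Trim14 (0.986 to 0.991), and Prss45 to Cchcr1, Dnah17 and Cep63 (0.993 to 0.995). Of these 12 genes, Cep63 was highest in RS and the others in PD. The genes closest to Prss46 were Slc22a14, Tmco2 and Fscb (0.996 to 0.997), and those closest to Prss54 were Antxrl, Plac8l1 and Zdhhc19 (0.993 to 0.994). Wdr64, Dnajb8 and Actrt2 were closest to Prss55 (0.991 to 0.993), and Fam71a, Fam71b and Fbxo39 to Prss37 (0.99 to 0.991), all highest in RS.

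Summed over the 10 genes, the level was 5.399 ± 1.03 CPM in Undiff.Spg, 50.5 ± 10.8 in Diff.Spg, 462 ± 13 in PreL, 1703 ± 349 in LZ, 739 ± 35 in PD and 1090 ± 35 in RS (SD, n = 3 each). The composition turned over between LZ and PD. In PD, Prss42 held 25.1% of the reads of the set, ahead of Prss43 at 19.5% ± 1.0 and Prss21 at 18.8% ± 2.6, whose ranges overlap (SD, n = 3). Prss46 and Prss54 led in RS, with 28.6% and 20.8%.

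**Figure D3:**
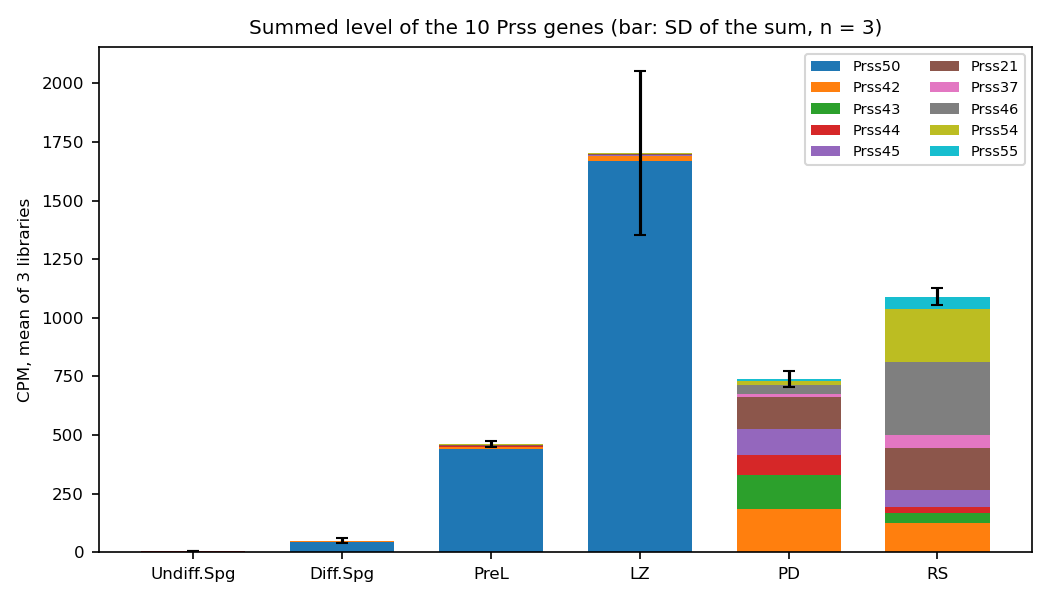
Stacked bars give the mean CPM of the 10 genes in each group, and the error bar is the SD of their sum over 3 libraries. LZ is nearly all Prss50, while PD and RS are divided among the other 9 genes.

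Counts of calls are read beside the share of all 18547 tested genes called in the same direction (edgeR, adjusted p under 0.05). All 10 genes differed among the 6 groups, as did 99% of tested genes. In Diff.Spg against Undiff.Spg, 2 were higher (Prss43 and Prss50; 20.4% of all genes were higher) and 0 lower (23%). The Prss43 call rests on few reads, 8, 17 and 5 in Diff.Spg against 1, 1 and 0 in Undiff.Spg, and was lost on leaving out any 1 of 5 of the 6 libraries. In PreL against Diff.Spg, 4 were higher (Prss21, Prss42, Prss45 and Prss50; 20.4% of all genes) and 0 lower (24.8%). Without PreL replicate 2 the Prss21 call was lost, and the uncalled log2 changes of Prss37, Prss46, Prss54 and Prss55 turned negative, at −1.90, −0.98, −1.92 and −3.30. The sizes of these 4 changes rest on very few reads. PreL replicates 1 and 3 held 1 and 0 reads for Prss37 and 2 and 4 for Prss46. They held 1 and 3 for Prss54 and 0 and 0 for Prss55. In LZ against PreL, 2 were higher (Prss42 and Prss50; 24.3% of all genes) and 0 lower (23.2%). Leaving out PreL replicate 2 alone gave 7 higher, and leaving out LZ replicate 2 as well gave 4. In PD against LZ, 9 were higher (42.1% of all genes) and 1, Prss50, was lower (40.8%). In RS against PD, 4 were higher (Prss37, Prss46, Prss54 and Prss55; 30.3% of all genes) and 3 lower (Prss42, Prss43 and Prss44; 28.6%). The Prss42 call in RS was lost under RLE scaling and in DESeq2. Median log2 changes of the 10 genes over the 5 steps were 0.79, 1.84, 0.41, 4.50 and −0.11, beside medians over all genes between 0 and 0.02. The 1.84 and 0.41 include PreL replicate 2, which held most PreL reads of Prss37, Prss46, Prss54 and Prss55. No median without that library is given, so the 1.84 is not read as a rise of the whole set.

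Promoters of 7 of the 10 genes were in the RefSeq table (GRCm38.p6, from 250 bases before to 50 after the start), not those of Prss43, Prss44 and Prss55. Those of Prss46 and Prss50 are printed because these neighbours peaked in different groups, and those of Prss42 and Prss45 because they peaked in the same one. Capitals mark the matches found on either strand: CNCCTCAG, a motif of the meiotic initiator STRA8, in Prss50 and Prss46, CACGTG, an E-box, in Prss42 and Prss45, and GTTGCC, an RFX motif, in Prss46.
Prss50: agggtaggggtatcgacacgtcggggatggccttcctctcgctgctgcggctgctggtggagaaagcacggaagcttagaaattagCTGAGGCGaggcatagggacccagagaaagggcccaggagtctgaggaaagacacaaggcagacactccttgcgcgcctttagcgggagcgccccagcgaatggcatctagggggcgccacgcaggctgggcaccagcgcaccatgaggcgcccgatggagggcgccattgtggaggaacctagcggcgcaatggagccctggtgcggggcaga
Prss46: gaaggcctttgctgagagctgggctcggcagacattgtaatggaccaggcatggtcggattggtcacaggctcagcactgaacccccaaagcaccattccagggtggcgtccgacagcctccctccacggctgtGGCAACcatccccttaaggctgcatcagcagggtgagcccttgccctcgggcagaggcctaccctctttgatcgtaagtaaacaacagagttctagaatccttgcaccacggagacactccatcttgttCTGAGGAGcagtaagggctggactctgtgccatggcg
Prss42: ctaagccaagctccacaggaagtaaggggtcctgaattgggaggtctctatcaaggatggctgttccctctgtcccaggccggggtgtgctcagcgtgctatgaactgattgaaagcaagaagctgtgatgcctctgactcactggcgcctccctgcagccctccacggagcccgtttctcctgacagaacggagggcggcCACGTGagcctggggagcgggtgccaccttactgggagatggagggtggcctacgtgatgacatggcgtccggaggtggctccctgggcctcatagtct
Prss45: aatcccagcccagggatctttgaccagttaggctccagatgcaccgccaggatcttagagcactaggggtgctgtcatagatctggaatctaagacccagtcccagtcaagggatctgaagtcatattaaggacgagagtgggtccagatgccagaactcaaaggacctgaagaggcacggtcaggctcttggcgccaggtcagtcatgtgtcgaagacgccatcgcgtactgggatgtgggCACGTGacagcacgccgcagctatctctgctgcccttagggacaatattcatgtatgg
The windows are chr9:110857714-110858013 for Prss50, chr9:110844256-110844555 for Prss46, chr9:110797935-110798234 for Prss42 and chr9:110834338-110834637 for Prss45, all on the plus strand. The Prss50 match starts 164 bases before the gene start and that of Prss46 at base 13 after it. Of 27025 promoters of the same length, 7.97% held the STRA8 motif, 7.24% the E-box and 12.7% the RFX motif, so such matches are common. The Prss50 window held 21 CpG dinucleotides and that of Prss37 held 1, beside a median of 7. The Prss21 window held 2 matches to the RFX motif, and no matches overlapped one another. The cAMP response element TGACGTCA (1.88% of promoters), its first 6 letters TGACGT (7.64%) and the MYB core CAGTTG (13.6%) had no match in the 7 windows.

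Other Prss genes were read from a list of 29, chosen with earlier results known, of which 15 were tested. Of these, 6 were highest in LZ, 6 in RS, 2 in PD and 1 in Diff.Spg, where 17.4%, 27.1%, 16.7% and 10.7% of all tested genes were highest. Prss38, counted in LZ, was at 13.5 CPM in PD against 13.6 CPM in LZ, with overlapping libraries. In PD against LZ, 8 (53.3%) were higher and 6 (40%) lower, beside 42.1% and 40.8% of all genes, with a median log2 change of 1.29 beside 0 for all genes. Prss39 had the highest level of these, at 874, 825 and 797 CPM in RS, against 449.9, 372 and 496 CPM in PD. Prss41 shared the LZ peak of Prss50 at a lower level, with 73.8, 85.7 and 91.4 CPM in LZ, against 12.3, 18.8 and 11.8 CPM in PreL. It was 8.58-fold higher in PreL against Diff.Spg (edgeR adjusted p = 1.28e-07). Prss8, or prostasin, a membrane-anchored epithelial protease, had 0 reads in PD and was at least 119-fold lower there than in LZ, by a floor of 3 reads over the group. Prss36 was the 1 gene highest in Diff.Spg, at 37.3 CPM against 19.7 CPM in Undiff.Spg (adjusted p = 0.00348). Prss41 shares 59 exonic bases with Prss32 and Prss8 shares 122 with Kat8, on opposite strands, so their reads may be partly mixed. Prss47 was at 56.2, 58.2 and 63.2 CPM in PD, against 0.0767, 1.55 and 0.0734 CPM in LZ (adjusted p = 1.11e-08). LZ replicate 2 held 22 of its 24 LZ reads, so no fold is given.

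**Figure D4:**
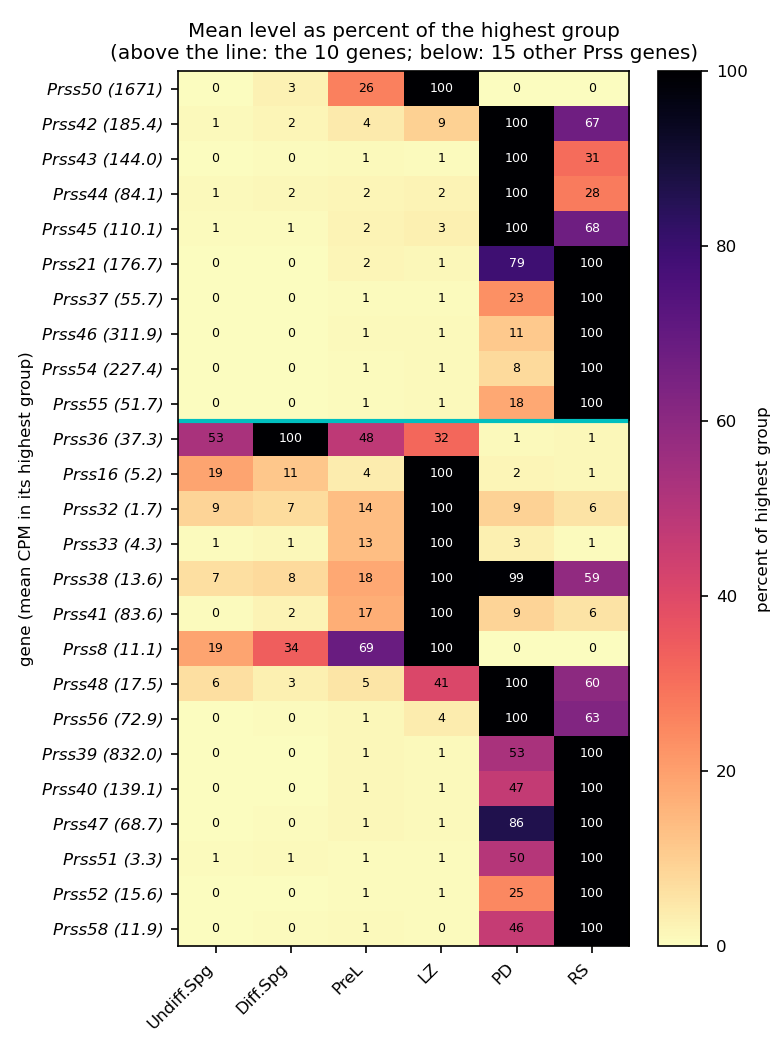
Mean level of each gene in each group as a percent of its highest group, for the 10 genes above the line and 15 other tested Prss genes below it, with the highest mean CPM beside each name. Of the 10 genes, 1 peaked in LZ, 4 in PD and 5 in RS, and of the other 15, 6 peaked in LZ.

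Protease inhibitors and proprotein convertases, 28 of 38 listed genes tested, had members moving in both directions at each step. At the step to PD from LZ, 11 were higher and 13 lower, which is 39.3% and 46.4% of those tested and close to the 42.1% and 40.8% of all genes. The median log2 change was −0.02, beside 0 for all genes. Spink2, an acrosomal inhibitor of serine proteases, averaged 730.4 CPM in PD against 11.1 CPM in LZ (log2 change 6.04 ± 0.94, adjusted p = 1.47e-05). Its LZ libraries were at 1.76, 28.5 and 2.94 CPM, and the log2 change was 8.27 without LZ replicate 2 and 5.41 without LZ replicate 3. Pcsk4, the proprotein convertase of germ cells, averaged 261 CPM in PD against 9.49 CPM in LZ (4.78 ± 0.41, adjusted p = 1.15e-08; 5.39 without LZ replicate 2). Serpine2, or protease nexin-1, had 0 reads in PD and was at least 101-fold lower there than in LZ.

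The list for ADAM3 maturation, 25 of 26 genes tested, covers sperm ADAM3 processing, the pathway of Prss37 and Prss55, and sperm surface maturation. It holds Adam3 itself, other ADAM genes, chaperones and surface proteins, and whether each is needed to process ADAM3 was not tested. Of the 25 tested genes, 21 (84%) were higher and 3 (12%) lower in PD against LZ, beside 42.1% and 40.8% of all genes. Their median log2 change was 3.90 beside 0. In RS against PD, 11 (44%) were higher and 4 (16%) lower, beside 30.3% and 28.6% of all genes, with a median of 0.56 beside 0. Adam2, the fertilin subunit, averaged 965 CPM in PD against 10.6 CPM in LZ (6.50 ± 1.03, adjusted p = 1.82e-05). Its LZ libraries were at 2.07, 27.3 and 2.57 CPM, and the log2 change was 8.69 without LZ replicate 2 and 5.85 without LZ replicate 3. Tex101, a GPI-anchored germ cell protein, was also highest in LZ, and it averaged 257 CPM in PD against 1927 CPM in LZ (−2.91 ± 0.31, adjusted p = 1.99e-07). Ly6k, a partner of Tex101, averaged 282 CPM in LZ against 42.4 CPM in PreL (adjusted p = 1.35e-08). In PreL against Diff.Spg, 14 genes (56%) were higher and 2 (8%) lower, beside 20.4% and 24.8% of all genes, and without PreL replicate 2, 4 were higher. The part of the late transcripts of PreL replicate 2 in that count was not tested.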

How the data were processed

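The deposited table holds read counts per gene that the authors made from 18 single-end libraries, 3 per group. The submitters' processing notes name cutadapt, STAR 2.4.2a, HTSeq, DESeq2 and GRCm38; the strand setting was not given in the sources used here. Of 46603 gene IDs, 46005 were matched to GENCODE M21. Totals were 11777947 to 16607462 counts. Genes were kept by filterByExpr (18547), normalised by TMM, and edgeR 4.0.16 (R 4.3.3) was run (quasi-likelihood, 2-sided, 1 model of 6 groups, Benjamini-Hochberg over all tested genes, common biological coefficient of variation 0.202). Standard errors are the log2 change divided by the square root of F. CPM use TMM-scaled totals. Replicate pairs of a group differed by more than sampling noise (chi-square over degrees of freedom 2.38 to 47.3). P-values reflect the spread among these libraries alone, which may be technical. The fit was tested on simulated data.

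The members and gene lists were chosen with earlier results of these data known. Named genes are the 10 members, for each the 3 tested genes of highest correlation (at least 20 CPM in their highest group), the nearest protein-coding neighbours, and per list and step up to 2 called genes with the largest rise and 2 with the largest fall, of at least 5 CPM; Prss39 levels in RS were added after its values were seen. Late genes have at least 50 CPM in PD or RS and under 0.5% of that in both spermatogonial groups. Catalytic positions were found by residue patterns in the longest coding sequence. Replicate numbers were checked for pairing by correlating deviations from group means: in PreL against Diff.Spg (0.228, 0.445 and 0.121) and LZ against PreL (0.455, 0.683 and 0.254) every pair passed 0.1, and in the other steps not. Alternatives were RLE scaling, total library size, no filter, 1 CPM in 3 libraries, DESeq2 1.42.0, a replicate block, each step fitted alone, a 2-fold condition, each library left out, and PreL and LZ replicate 2 left out together.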

Additional observations from a re-analysis of the deposited data

How the results depend on the processing

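No called result reversed. Of counts of called genes over all alternatives, 1017 stayed within 1.5 times and 63 moved. The replicate block moved no count by over 1.5 times; with it 9 of the 10 genes were higher and 1 lower in PD against LZ. With each step fitted alone, 5 of the 10 genes were higher in Diff.Spg, 3 ADAM3 genes lower in Diff.Spg, 5 inhibitor genes higher in LZ, and 5 other Prss genes and 17 ADAM3 genes higher in RS. With a 2-fold condition, 2 other Prss, 3 inhibitor and 1 ADAM3 genes were higher in Diff.Spg, 3 inhibitor genes higher and 5 lower in PreL, 0 ADAM3 genes lower in PreL, 2 inhibitor genes lower in LZ, and 0 other Prss genes lower in RS. Other Prss genes lower in LZ were 1 under RLE scaling, total library size, no filter and DESeq2. Total library size gave 5 of the 10 genes lower and 1 other Prss gene higher in RS, where RLE gave 4 higher. That scaling moved the median of all genes by −0.35 in PD against LZ, −0.20 in LZ against PreL and −0.14 in RS against PD, and RLE moved the last by 0.14. DESeq2 gave no adjusted p for Prss54. Without PreL and LZ replicate 2, 5 of the 10 genes were higher in Diff.Spg and 4 in LZ, 2 other Prss genes were lower in PreL, 1 lower in LZ and 5 higher in RS, 3 ADAM3 genes were lower in PreL and 7 higher in LZ. Leaving out 1 library at a time, the 10 genes gave 1 to 4 higher in Diff.Spg, 2 to 7 higher and 0 to 1 lower in LZ, and other Prss genes 2 to 4 higher and 0 to 1 lower in Diff.Spg, 4 to 8 higher and 1 to 2 lower in PreL, 0 to 1 lower in LZ and 1 to 3 higher in RS. ADAM3 genes ran from 1 to 2 higher in Diff.Spg, 4 to 20 higher and 1 to 2 lower in PreL, and 4 to 11 higher and 3 to 11 lower in LZ. The cause of these shifts was not tested. Low read numbers limit the Undiff.Spg and Diff.Spg values of the genes other than Prss42 and Prss50. They also limit the PreL values of Prss37, Prss43, Prss46, Prss54 and Prss55, and the LZ values of Prss21, Prss37, Prss43, Prss54 and Prss55. The PD and RS values of Prss50 are limited in the same way.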
